A study of Mus musculus with 12 samples.

Results

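Glycolysis in activated B cells was followed through the mRNAs of 10 genes that carry glucose from the cell surface to lactate: Slc2a1, Hk2, Gpi1, Pfkl, Pfkp, Aldoa, Pgk1, Eno1, Pkm and Ldha. They were chosen by gene name, for their place in the pathway, from a table of 29486 mouse genes, and all 10 were found. mRNAseq of total cellular mRNA was performed on splenic B cells of C57BL/6Babr mice, purified with an isolation kit, in 3 conditions with 4 libraries each. Cells named LPS were activated with lipopolysaccharide at 10 µg per ml for 48 h. Cells named LE had the same activation followed by etoposide at 20 µM for 4 h, and cells named LEKU had LPS for 47 h, then the ATM kinase inhibitor KU55933 at 10 µM for 1 h, then etoposide for 4 h. Etoposide traps topoisomerase II on DNA and leaves double strand breaks, and ATM is a kinase that signals such breaks. No condition held KU55933 without etoposide, so the LEKU cells show the inhibitor only on top of the drug. All cells were cultured with LPS. Whether the LPS cells also stayed in culture for the further 4 h is not plain from the labels, which give no age of the mice.

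Glycolysis splits glucose into pyruvate and yields ATP and building blocks. Resting B cells use little glucose, and mitogens such as LPS raise uptake and lactate output, which fuels growth and division. Hexokinase, phosphofructokinase and pyruvate kinase catalyse the steps that run in one direction in the cell, and several steps can be served by isozymes that different genes encode. The transcription factors Myc and Hif1a are known to drive many of these genes.

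The deposited value of a gene was 1 fitted mean per condition multiplied by the size of each library. Any pair of libraries of a condition held one ratio over all genes, to within 2.7e-14 on the log2 scale. No spread between replicates could be read from the table, so no difference below was tested, and none can be called larger than replicate error. A level is given as the fitted normalised count after division by the size factor of its library. This level is the same in the 4 libraries of a condition. A change is the log2 ratio of levels after adding 1 to each. "Past 1.5-fold" means a log2 change of at least 0.585 in size and is a description of size only. Exact 95% intervals (Clopper-Pearson) on the summed fitted counts reached 0.01 to 0.051 log2 units to either side for the 10 genes in LE against LPS and cover counting error only. Fitted counts summed to between 20400994 and 30575195 per library. Transcripts of the damage response were higher after etoposide. Cdkn1a, an inhibitor of the cell cycle, stood at 397 in LPS, 13737 in LE and 10914 in LEKU. The other damage genes listed as a check had the same order of conditions, with Mdm2 at 2531, 17023 and 9622 and Ccng1 at 5479, 52153 and 30942. The Illumina indexes of a condition were used in no other condition, so index and condition cannot be told apart.

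In LE cells the summed level of the 10 mRNAs was 13.1% below that of LPS cells, and in LEKU cells it was 32.3% below. The 10 genes made up 0.654% of all fitted counts in LPS, 0.587% in LE and 0.476% in LEKU. By fold, the genes that differed most after etoposide alone were Pfkp and Hk2, which were 2.27-fold and 1.62-fold lower, and Pfkl, which was 1.34-fold higher. With KU55933 added, Ldha and Pfkl were 1.61-fold and 1.54-fold lower than with etoposide alone, and Pfkp and Aldoa differed by no more than 1.52%.

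The DNA just before the start site is shown for these 4 genes, because they are the genes past 1.5-fold in LE against LPS or in LEKU against LE and because the windows differ in a short motif. Capitals mark the letters ACGTG on either strand, the core of the element that hypoxia-inducible factors bind. The letters CACGTG, the E-box that Myc with Max binds, contain this core. Sequences are from RefSeq on GRCm38.p6, run 5′ to 3′ on the strand of the gene, stop at the start site (6 bases before it for Pfkp) and leave out bases that GENCODE M21 places in exons of the listed genes. The window of Hk2 is chr6:82774455-82774704 on the minus strand, that of Pfkp is chr13:6648778-6649021 on the minus strand, that of Pfkl is chr10:78009808-78010004 on the minus strand, and that of Ldha is chr7:46845554-46845803 on the plus strand.
Hk2: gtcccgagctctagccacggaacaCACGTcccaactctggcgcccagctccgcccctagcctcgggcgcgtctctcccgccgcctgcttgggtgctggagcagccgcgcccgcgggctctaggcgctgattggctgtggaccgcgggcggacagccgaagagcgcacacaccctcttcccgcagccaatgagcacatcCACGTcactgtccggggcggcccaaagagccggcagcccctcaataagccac
Pfkp: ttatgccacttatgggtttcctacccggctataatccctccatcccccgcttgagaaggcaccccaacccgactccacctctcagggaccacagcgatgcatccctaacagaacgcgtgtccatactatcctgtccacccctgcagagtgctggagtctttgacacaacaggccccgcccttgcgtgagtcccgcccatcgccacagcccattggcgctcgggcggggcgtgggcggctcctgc
Pfkl: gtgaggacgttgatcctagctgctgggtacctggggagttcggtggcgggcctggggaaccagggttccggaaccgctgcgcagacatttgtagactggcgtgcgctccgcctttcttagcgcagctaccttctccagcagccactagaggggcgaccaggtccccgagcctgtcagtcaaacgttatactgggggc
Ldha: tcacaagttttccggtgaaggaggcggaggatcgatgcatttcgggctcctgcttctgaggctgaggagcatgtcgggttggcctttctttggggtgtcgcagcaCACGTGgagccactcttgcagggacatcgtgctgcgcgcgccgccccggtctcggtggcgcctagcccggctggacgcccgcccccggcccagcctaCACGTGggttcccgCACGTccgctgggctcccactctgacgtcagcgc

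Within the 250 bases before the start, Hk2 held the core 2 times, 226 and 52 bases upstream, and Ldha held it 3 times, 145, 48 and 34 bases upstream. The 2 matches of Ldha farthest from the start were full E-boxes. Neither phosphofructokinase gene held the core. RefSeq gave 16 windows for the 10 genes, and 7 windows of 6 genes (Slc2a1, Hk2, Aldoa, Pgk1, Pkm and Ldha) held the core, against 16.6% of 32817 windows of all genes. Windows of a gene can overlap, and the 2 Aldoa windows counted among the 7 hold the same match, 126 and 202 bases before their starts. The E-box was in 1 of the 16 windows, against 6.02% of all windows. Distances are counted from the first base of the match. Genes with the core stood on either side of the 1.5-fold limit: Pgk1 held it 2 times, 150 and 131 bases upstream, and was 1.07-fold lower in LE. Binding was not measured, and a match is a run of letters only.

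Entry of glucose and its phosphorylation are served by Slc2a1 and Hk2. Slc2a1 (ENSMUSG00000028645, chr4:119108711-119137983, plus strand) encodes the glucose transporter GLUT1. Its level was 1609 in LPS, 1534 in LE and 1225 in LEKU, a log2 change of -0.07 for LE against LPS and of -0.32 for LEKU against LE. The small LE difference turned positive, to 0.18, when the columns were used without dividing by library size. Hk2 (ENSMUSG00000000628, chr6:82725025-82774454, minus strand) encodes hexokinase 2, which traps glucose in the cell as glucose 6-phosphate. As deposited, before division by library size, the 4 LPS libraries held 2170, 2408, 2505 and 2257, the 4 LE libraries 1499, 1680, 2035 and 1629, and the 4 LEKU libraries 1141, 1287, 1379 and 1401. All LPS values lay above all LE values, and the LE values above the LEKU values, but the values within a condition differ by library size alone. The scaled levels were 2558, 1576 and 1273, which is 38.4% lower in LE than in LPS and a further 19.2% lower in LEKU than in LE. Hk2 was thus 2.01-fold lower in LEKU than in LPS.

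Gpi1 (ENSMUSG00000036427, chr7:34201330-34230336, minus strand) encodes the isomerase that makes fructose 6-phosphate. It differed least over the 3 conditions, with levels of 14996, 15086 and 13383 and log2 changes of 0.01 and -0.17, and the sign of the LE difference depended on the scaling.

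Phosphofructokinase commits sugar to glycolysis, and its isozyme mRNAs differed in opposite directions. Pfkp (ENSMUSG00000021196, chr13:6579768-6648777, minus strand) encodes the platelet-type subunit. As deposited it stood at 5242, 5815, 6049 and 5451 in the LPS libraries, at 2589, 2902, 3515 and 2813 in the LE libraries, and at 2417, 2725, 2919 and 2968 in the LEKU libraries. The LPS libraries were all higher, and the ranges of LE and LEKU overlapped, but each range reflects library size alone and not replicate spread. The scaled level was 6178 in LPS, 2722 in LE and 2695 in LEKU. Its log2 change of -1.18 ± 0.03 (counting interval) in LE against LPS was the largest of the 10 genes, and 3.77% of the 5443 genes with a mean level of at least 1000 had a lower value. The LEKU difference from LE was -0.01 and changed sign with the scaling.
Pfkl (ENSMUSG00000020277, chr10:77986947-78010083, minus strand) encodes the liver-type subunit. As deposited it stood at 3349, 3715, 3865 and 3482 in LPS, at 5044, 5653, 6847 and 5480 in LE, and at 3081, 3474, 3722 and 3783 in LEKU. The LE libraries were all above both other conditions, which overlapped, but values within a condition differ by library size alone. The scaled levels were 3947, 5302 and 3436, so Pfkl was 34.3% higher in LE than in LPS and 35.2% lower in LEKU than in LE. Of the 10 genes only Pfkl and, by 0.597%, Gpi1 were higher in LE than in LPS under the scaling used here. The ratio of Pfkp to Pfkl levels was 1.57 in LPS, 0.513 in LE and 0.784 in LEKU. These ratios compare levels not divided by length.

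Aldoa (ENSMUSG00000030695, chr7:126795234-126800751, minus strand) encodes aldolase A, which splits the sugar into triose phosphates. Its level was 23222 in LPS, 19494 in LE and 19791 in LEKU. The LE difference was -0.25 on the log2 scale, and the LEKU difference from LE was 0.02, which turned negative without division by library size.

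Pgk1, Eno1, Pkm and Ldha serve the later steps. Pgk1 (ENSMUSG00000062070, chrX:106187100-106203699, plus strand) encodes the first kinase of the pathway that makes ATP, and stood at 20473, 19213 and 15550. Its LE difference of -0.09 changed sign under 2 other scalings, and LEKU was 19.1% below LE. Eno1 (ENSMUSG00000063524, chr4:150236721-150248879, plus strand), which encodes enolase 1, stood at 21096, 17412 and 12411, with log2 changes of -0.28 for LE against LPS and -0.49 for LEKU against LE. Pkm (ENSMUSG00000032294, chr9:59656368-59679375, plus strand) encodes the pyruvate kinase of most tissues, and its splice forms were not separated in the table. It had the highest fitted count of the 10 genes in each condition, 41790, 36792 and 26139, and was 12% lower in LE than in LPS (higher by 0.07 log2 units without division by library size) and 29% lower in LEKU than in LE.
Ldha (ENSMUSG00000063229, chr7:46841475-46855627, plus strand) encodes the lactate dehydrogenase subunit that favours lactate. As deposited it stood at 20417, 22652, 23563 and 21233 in LPS, at 18954, 21244, 25730 and 20595 in LE, and at 11132, 12553, 13448 and 13669 in LEKU. The LPS and LE ranges overlapped, and all LEKU libraries lay below both, but the width of each range comes from library size alone. The scaled levels were 24065, 19926 and 12414, and the log2 change was -0.27 in LE against LPS and -0.68 in LEKU against LE. Of the genes with a mean level of at least 1000, 4.12% had a lower value than Ldha in LEKU against LE.

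**Figure D1:**
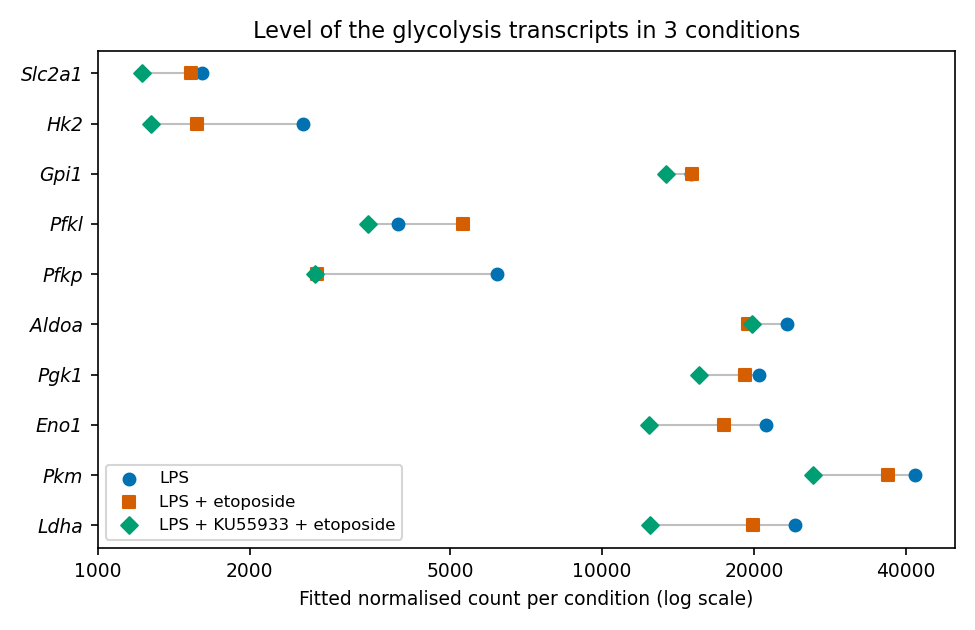
Fitted normalised count of each of the 10 genes (horizontal axis, log scale) in LPS (circles), LPS with etoposide (squares) and LPS with KU55933 and etoposide (diamonds), 1 fitted value per condition with no replicate error, listed in pathway order from top to bottom. Pfkp is at 6178 in LPS and at 2722 and 2695 in the other conditions, Pfkl is highest with etoposide alone at 5302, and Eno1, Pkm and Ldha step down from LPS to LE to LEKU.

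Over the 10 genes, 8 were lower and 2 higher in LE than in LPS, with 5 to 9 lower under the 5 other scalings. Past 1.5-fold were 2 genes on the lower side (Hk2 and Pfkp) and 0 on the higher side. Among the 15616 genes kept, 13.5% were past 1.5-fold on the lower side and 24.1% on the higher side. Among the 5443 genes with a mean of at least 1000, where all 10 glycolysis genes fall, the shares were 16.1% and 12.0%. The count of 2 in 10 on the lower side is close to these shares. The median log2 change of the 10 genes was -0.22, beside 0.07 for all genes kept and -0.06 for the genes with a mean of at least 1000. With quantile normalization the medians lay closer together, at -0.12 for the 10 genes and -0.08 for all genes kept.

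Between LEKU and LE, 9 of 10 were lower in LEKU, and 8 to 10 under the other scalings. Pfkl and Ldha were past 1.5-fold on the lower side and 0 genes on the higher side, beside 12.1% and 6.85% of all genes kept and 6.01% and 4.32% of the genes with a mean of at least 1000. Scaling by library totals or by quantile normalization left only Ldha past it, 1 gene of the 2. The median was -0.32, beside -0.05 for all genes kept and -0.06 for the genes with a mean of at least 1000. In LEKU against LPS all 10 were lower (9 under 2 other scalings, where Gpi1 turned positive). Of all genes kept 44.1% were lower, and of those with a mean of at least 1000, 56.3%. Past 1.5-fold on the lower side were 5 (Hk2, Pfkp, Eno1, Pkm and Ldha), beside 13.3% of all genes kept and 16.8% of those with a mean of at least 1000, and 0 were past it on the higher side, beside 22.7% and 10.3%. With library totals and with the columns undivided Pkm was not past the limit, at -0.57 and -0.51, which left 4 genes. The median was -0.54, beside 0.09 for all genes kept and -0.08 for the genes with a mean of at least 1000. Each condition enters 2 of the 3 comparisons, so these sets of changes share samples and are not independent of each other.

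**Figure D2:**
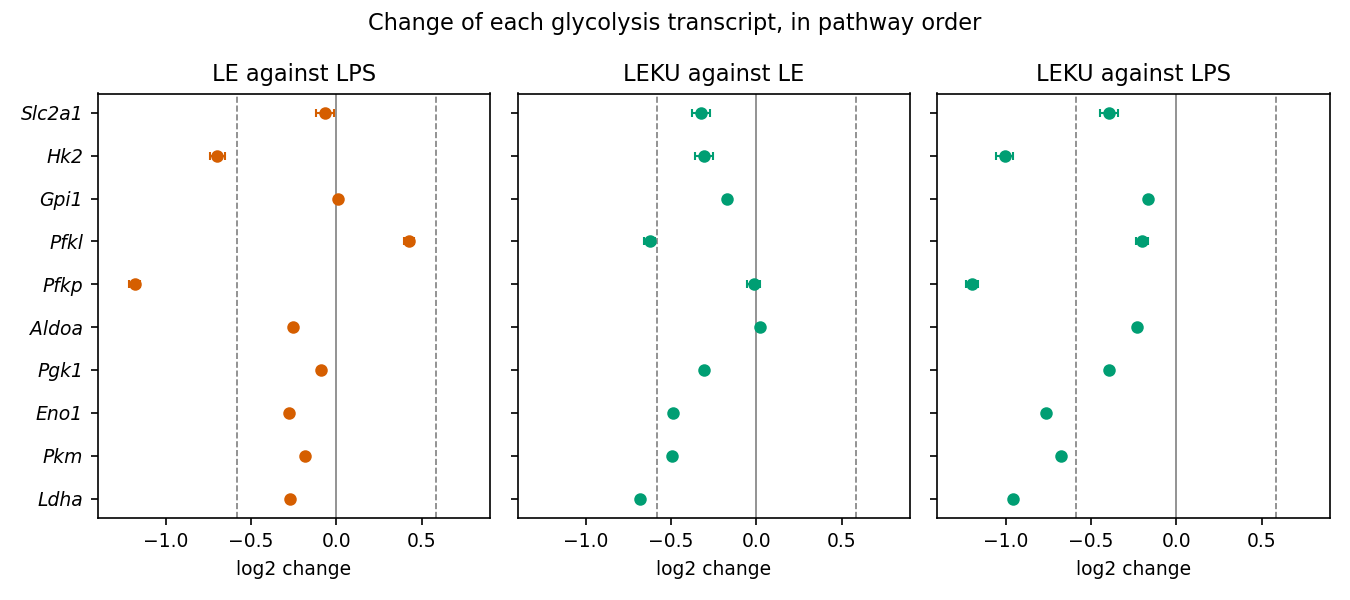
log2 change of each of the 10 genes (horizontal axis) in LE against LPS, LEKU against LE and LEKU against LPS, in pathway order from top to bottom, with bars for the exact 95% counting interval and dashed lines at 1.5-fold (0.585). Hk2 and Pfkp lie past the line in LE against LPS, Pfkl and Ldha in LEKU against LE, and 5 genes in LEKU against LPS.

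**Figure D3:**
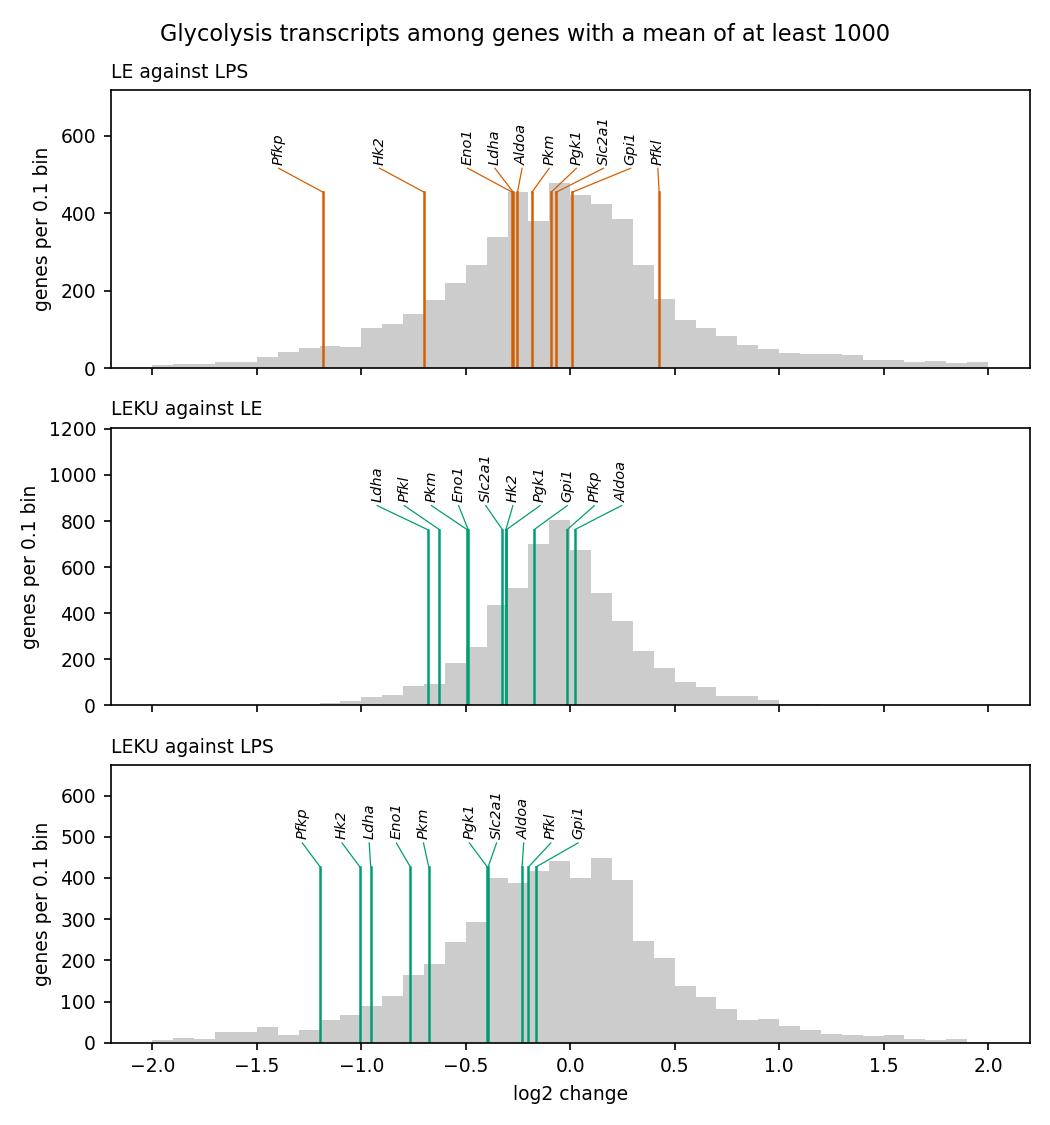
Number of genes per bin of 0.1 log2 units among the 5443 genes with a mean level of at least 1000 (grey bars, shown from -2 to 2) for the 3 comparisons, with a coloured line at the log2 change of each of the 10 glycolysis genes. In LE against LPS most lines lie in the body of the distribution with Pfkp in the lower tail, and in LEKU against LPS all 10 lie below 0.

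The 4 genes after aldolase were set beside the 6 up to and including it, a division made after the values were seen. The median log2 change in LEKU against LE was -0.49 for the later genes and -0.24 for the earlier ones. In LE against LPS the medians were -0.23 and -0.16. Tpi1, Gapdh and Pgam1 encode the remaining enzymes between aldolase and enolase. With these 3 added, all 7 later genes were lower in LEKU than in LE, from -0.77 to -0.31. The 6 earlier genes ran from -0.63 to 0.02, with 5 of them lower, so the ranges overlapped. Other isozymes of the later steps went both ways. Eno2 and Eno3 were higher in LEKU than in LE, at 0.09 and 0.20. Gapdhs, Pgam2 and Ldhb were lower, at -0.74, -0.01 and -2.54.

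Of the 24 other glycolysis genes listed, 18 passed the filter on low values. In LE against LPS, 3 of these were past 1.5-fold on the higher side (Eno2, Pgam2 and Ldhb) and 1 on the lower side (Slc2a6), with a median of 0.04. Among all genes kept the shares were 24.1% on the higher side and 13.5% on the lower side. For LEKU against LE, 1 was past it on the higher side (Slc2a6) and 3 on the lower side (Pgam1, Gapdhs and Ldhb), with a median of -0.15. The shares of all genes kept were 6.85% and 12.1%. Gapdh, often used as a reference transcript, was at 33931, 32511 and 25994, which is 20% lower in LEKU than in LE. Tpi1, which encodes triose phosphate isomerase, was at 10564, 8552 and 6402. Pgam1, which encodes the main phosphoglycerate mutase, was at 6648 and 6784 in LPS and LE and at 3969 in LEKU, 41.5% below LE. Slc16a1, which encodes a lactate exporter, was at 3053, 2409 and 1861, and Slc16a3, which encodes a further one, at 1068, 1101 and 874.5.

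The genes past 1.5-fold on the higher side in LE were isozymes best known from other tissues, but other isozymes in the list were within 1.5-fold. Eno3, Hk3 and Gapdhs were 1.15-fold, 1.17-fold and 1.03-fold higher in LE, and Pfkm and Aldoc were 1.07-fold and 1.33-fold lower. Eno2, the neuronal enolase, was 3.1-fold higher in LE (373, 1158 and 1237), and Pgam2, the muscle phosphoglycerate mutase, was 3.55-fold higher (91.1, 326 and 324). Both differed little between LE and LEKU. Ldhb, the lactate dehydrogenase subunit of heart, was at 9.77 in LPS, 155 in LE and 25.8 in LEKU. Ldhb had the largest difference among the glycolysis genes kept in both of these comparisons, at 14.5-fold higher in LE than in LPS and 5.83-fold lower in LEKU than in LE, and its counting interval in LE against LPS reached 0.51 log2 units to either side.

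Isozyme shares were computed at 6 steps from levels per kb of the principal transcript, since levels of different genes can be compared only per length. The phosphofructokinase total was 17.9% lower in LE than in LPS on this scale and 5.38% lower per kb of merged exons. Pfkl supplied 39.5% of it in LPS, 64.6% in LE and 54.7% in LEKU, while Pfkp supplied 55.6%, 29.8% and 38.6%. Per kb of merged exons Pfkl was ahead in LPS too, at 50.7%, so which isozyme leads in LPS cells depends on the length used, but the share of Pfkl was higher in LE on both. Pfkm, the muscle subunit, was at 383, 357 and 327 and supplied 4.96% to 6.74% of the total.
Among hexokinases the level of Hk1 was 2680, 2058 and 2068, and the share of Hk2 was 39.9% in LPS, 34.7% in LE and 29.9% in LEKU. Per kb of merged exons its share was 57.4%, 51.8% and 46.4%, so which hexokinase leads in LPS and LE depends on the length used. The hexokinase total was 29.1% lower in LE than in LPS per kb of principal transcript. Hk3 stood at 12.9 to 15.5 and gave 0.344% to 0.623% of the total.
Among glucose transporters the largest difference was in Slc2a6, which encodes GLUT6. It was at 1329 in LPS, 607 in LE and 1527 in LEKU, so that it was 2.19-fold lower in LE than in LPS and 2.51-fold higher in LEKU than in LE. Slc2a3, which encodes GLUT3, was at 1291, 998 and 1315. The share of Slc2a1 in the 3 transporters was therefore highest in LE, 46.8%, although its own level was not. Aldoa gave 97.4% to 98% of the aldolase level, beside Aldoc at 1142, 859 and 761. Eno1 gave 96.8% of the enolase level in LPS and 89.4% in LEKU, with Eno3 at 338, 388 and 447. Ldha gave about 99.9%, 99% and 99.7% of the lactate dehydrogenase level in LPS, LE and LEKU.

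**Figure D4:**
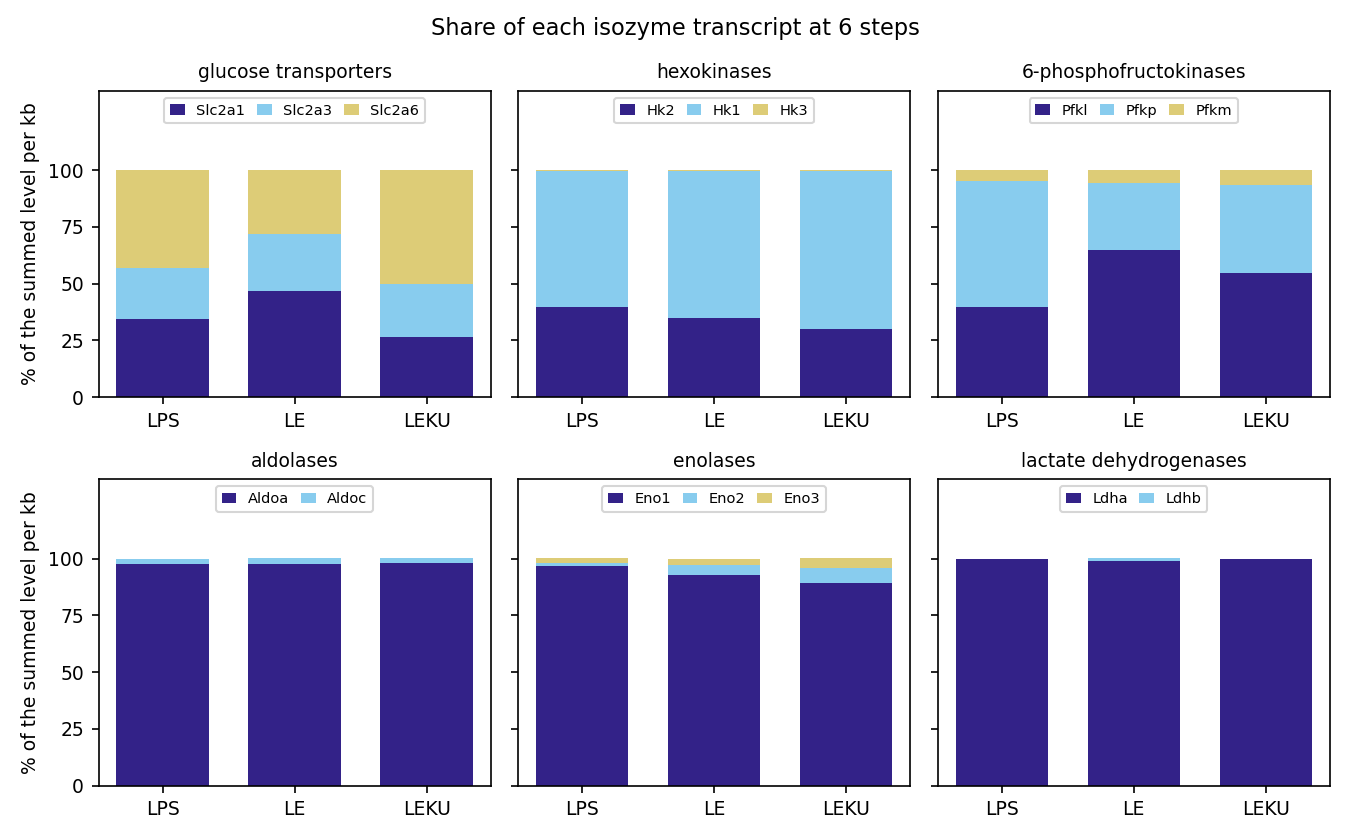
Share of each isozyme mRNA in the summed level per kb of principal transcript (vertical axis, percent, from 0) in LPS, LE and LEKU at 6 steps of glycolysis, 1 fitted value per bar segment. Pfkl fills 39.5% in LPS and 64.6% in LE, Slc2a6 is smallest in LE, and Aldoa, Eno1 and Ldha fill most of their bars in all 3 conditions.

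Of the remaining genes, Adpgk, which encodes a glucokinase that uses ADP, was at 1527, 1710 and 2362, and was 1.38-fold higher in LEKU than in LE. Bpgm, the bisphosphoglycerate mutase, was at 449, 549 and 392. Gapdhs, the sperm form of Gapdh, was at 103, 106 and 62.7, 40.3% lower in LEKU than in LE.

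Ordered by level per kb of principal transcript, Pkm came before Aldoa, Ldha, Pgk1, Eno1, Gpi1, Pfkp, Pfkl, Slc2a1 and Hk2 in LPS cells. The range was 17184 to 464 per kb. Neighbours in this order differed by 1.06-fold (Slc2a1 and Hk2) to 3.49-fold (Gpi1 and Pfkp), and without replicate spread none of these steps can be tested. In LE, Pfkl passed Pfkp, and in LEKU, Aldoa stood above Pkm and Pgk1 above Ldha. Per kb of merged exons Pgk1 led in all 3 conditions, at 9123 in LPS, so the place of Pgk1 is set by the length used. Gpi1, Pfkl, Pfkp, Slc2a1 and Hk2 held the 5 lowest places on both lengths in all conditions.

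Some reads of these genes may be shared with near-identical copies. Eno1b, a copy of Eno1 on another chromosome, stood at 12.2%, 12.2% and 12.3% of Eno1 in LPS, LE and LEKU. Pgk1-rs7, a processed pseudogene, stood at 18.3%, 18.2% and 18.5% of Pgk1. The share of each copy was nearly the same in the 3 conditions, and whether reads were split between them was not tested. The copies Aldoart1 and Aldoart2 were at 9.07 or below in each condition. Genes of the opposite strand overlap Slc2a1, Hk2, Gpi1, Pfkp and Aldoa, and the library kit keeps strand. Whether the counting used strand is not given in the sources used here, so the overlapped stretches, 748 bases for Pfkp with Pitrm1 and 3084 bases for Aldoa with Fam57b, leave these values uncertain. Gm49759 overlaps Pkm on the same strand.

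Pathways that meet glycolysis were set beside it. The counts past 1.5-fold in these lists stand beside the shares of all genes kept. Those shares were 24.1% higher and 13.5% lower in LE against LPS, and 6.85% higher and 12.1% lower in LEKU against LE. Fructose 2,6-bisphosphate activates phosphofructokinase, and of 5 genes that control it Pfkfb3, which encodes the form with the highest ratio of kinase to phosphatase activity, was 2.28-fold lower in LE (2566, 1126 and 1278). Tigar, which encodes a phosphatase of this signal, was at 452, 691 and 615, and Pfkfb2 at 323, 486 and 527, both just past 1.5-fold on the higher side in LE. Pfkfb4 and Pfkfb1 were 1.41-fold and 1.2-fold higher in LEKU than in LE, and 0 genes of this list were past 1.5-fold there.
All 7 genes of the pentose phosphate pathway were within 1.5-fold in LE against LPS and in LEKU against LE. Rpe, the ribulose phosphate epimerase, came nearest in both, 1.42-fold higher in LE and then 1.48-fold lower in LEKU than in LE. G6pdx, which encodes the entry enzyme of that pathway, was at 1803, 2167 and 1600.
Of 12 genes for pyruvate entry into mitochondria that passed the filter, 2 were past 1.5-fold on the higher side in LE, Pdp1 (144, 454 and 287) and Pdp2 (855, 1542 and 1295), which encode the phosphatases that switch on pyruvate dehydrogenase. With KU55933 added, Pdp1 was 1.58-fold lower than in LE and Pdk2, which encodes an opposing kinase, was 1.54-fold higher at a low level (86.5 and 134). The tricarboxylic acid cycle had 16 genes kept, of which 12 were lower in LE and 2 were past 1.5-fold, Suclg1 and Suclg2, which encode succinate ligase subunits. Against LE, 0 of the 16 were past 1.5-fold in LEKU, with Ogdh at -0.33 and Sucla2 at -0.29. Its medians were -0.15 in LE against LPS and -0.12 in LEKU against LE.
Gluconeogenesis runs the pathway backward. Of the 4 genes kept, Pck2, which encodes the mitochondrial enzyme that makes phosphoenolpyruvate, was at 6627 in LPS, 2735 in LE and 7406 in LEKU. It was 2.42-fold lower in LE than in LPS and 2.71-fold higher in LEKU than in LE, the same order of conditions as Slc2a6. G6pc3, a phosphatase of glucose 6-phosphate, was at 725, 445 and 658.

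Among 12 regulators of glycolysis genes that passed the filter, 2 were past 1.5-fold on the lower side in LE against LPS (Myc and its partner Max) and 3 on the higher side (Txnip, Sp1 and Mlxipl). These counts are close to the shares of all genes kept, 13.5% on the lower side and 24.1% on the higher side. Myc was 2.26-fold lower in LE (3624, 1604 and 1753). Hif1a was at 2545, 3027 and 2823, within 1.5-fold in every comparison. Hif1a, Max, Sp1 and Pfkfb2 are named outside the rule, after their values were seen. Txnip, which encodes a protein that lowers glucose uptake and responds to glucose, was 1.72-fold higher in LE and then 1.87-fold lower in LEKU than in LE (4213, 7257 and 3881), so its LEKU level was below that of LPS. Egln3, a prolyl hydroxylase that acts on Hif1a, was at 246, 276 and 184. Mlxipl was at 5.31 to 15.3, close to the filter.

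The cells carried B cell transcripts at high level in all conditions, and these also differed. All 8 B cell markers were lower in LE than in LPS, with Cd22 at 23231 and 4369 and Pax5 at 5341 and 1146, and they summed to 0.938%, 0.651% and 0.697% of all counts. Compared with LE, Ms4a1 was 1.56-fold lower in LEKU. The Cd3d, Cd3e, Cd3g, Cd4 and Cd8a markers of T cells were at 3.58 or below, and Lck, the only T cell marker that passed the filter, was at 408.7, 300.6 and 272.5 and made up most of the sum of that list (417, 310 and 282). The macrophage list summed to 0.00165%, 0.00202% and 0.00192% of all counts, with its 6 genes between 4.03 and 216, and the red blood cell list to 0.000861%, 0.000801% and 0.000518%. The neutrophil list summed to at most 8.65e-05%, with S100a8, S100a9 and Ly6g at 0.467 or below. These sums stand beside 0.654% for the 10 glycolysis genes in LPS, and the part of other cell types in the glycolysis differences was not tested. In bulk RNA, fewer cells that use glycolysis and less mRNA per cell cannot be told apart.

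Outside all lists, the genes whose log2 changes in LE against LPS and LEKU against LPS lay nearest to the medians of the 10 glycolysis genes were Nup153, Polq, Xpo1, Heatr1 and Xrn2, at distances of 0.0032 to 0.024 log2 units over the 3 conditions. Nup153 and Xpo1 serve nuclear transport, Polq is a DNA polymerase, and Heatr1 and Xrn2 act in RNA processing. In all, 104 of 5370 genes lay within 0.1 of the medians. The glycolysis genes themselves lay 0.14 (Pkm) to 1.2 (Pfkp) from their own median pattern.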

How the data were processed

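Total mRNA was measured in 12 libraries, 4 per condition, grouped by the sample titles and described as biological replicates in the study's methods. Per the labels and methods, the authors prepared stranded libraries, trimmed reads with Trim Galore and cutadapt 1.2.1, mapped them to GRCm38 (mm10) with TopHat2 2.0.12, counted with HTSeq and fitted DESeq2 1.6.3. The deposited table holds for each gene and library a signal, which is 1 fitted value of the condition multiplied by the size of the library. The authors' comparison tables hold fold changes, their errors and p-values, which were not used. The authors' mean over libraries in 1 of them served to recover their scaling as an alternative.

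Columns were divided by median-of-ratios factors over genes with a mean above 100 (Python 3.11.15, numpy 2.4.6, pandas 2.3.3, scipy 1.17.1, matplotlib 3.10.9). The filter asked for a value of 10 or more in 4 or more libraries and passed 15616 of 29486 genes, and a pseudocount of 1 was added before log2. All 10 glycolysis genes passed this filter. Since the columns held no replicate spread, neither limma nor any other test was run. Depth was 20400994 to 30575195 fitted counts per library, and intervals cover counting error only. The script was tested on simulated data. Alternatives were other scalings, pseudocounts, filters, fold limits and leaving out each replicate. Lengths, coordinates and overlaps are from GENCODE M21 (GRCm38), matched by Ensembl ID. Genes named were all 10 members, any other glycolysis gene kept, in each other list the 2 with the largest change in LE against LPS and the 2 in LEKU against LE, all copies and damage genes, and the 5 nearest in pattern. The members and the lists were chosen with earlier results of these data known.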

Additional observations from a re-analysis of the deposited data

How the results depend on the processing

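Scaling mattered most in LE against LPS. The median log2 change of the 10 genes, -0.218 as reported, was -0.280 with TMM-style factors, -0.172 with library totals, -0.122 with quantile normalization, -0.292 with the authors' own factors (chosen after seeing the data) and 0.032 with the columns undivided, where Pfkl passed 1.5-fold on the higher side and Hk2 no longer did on the lower (1 higher and 1 lower). The median of all genes moved with it, from 0.068 to 0.315 undivided and -0.083 with quantile normalization. Every scaling except quantile normalization multiplies all genes of a condition by 1 factor. Apart from the pseudocount, such a scaling cannot change the gap of the 10 genes to all genes. The gap of -0.283 to -0.287 under these scalings therefore says nothing of stability. With quantile normalization, which can change it, the gap was -0.039, and the cause was not tested. In LEKU against LE the median, -0.316, was -0.259 with library totals and -0.402 undivided, and 1 gene in place of 2 was past 1.5-fold with library totals and with quantile normalization. In LEKU against LPS the median, -0.537, was -0.608 with TMM-style factors and with the authors' factors, -0.433 with library totals, -0.487 with quantile normalization and -0.372 undivided. A limit of 2-fold left 1, 0 and 2 genes in the 3 comparisons, all on the lower side, where 4.87%, 4.73% and 5.03% of all genes kept were past it. The smaller limit tried gave 5 on the lower side in LEKU against LE, beside 24.7% of all genes kept. Of 30 changes of single genes, 23 kept their sign under the 5 other scalings. Leaving out a replicate moved no change by more than 0.002, which says nothing of stability because the columns are fitted. No paired analysis was possible because the columns hold 1 fitted mean per condition and no replicate spread, so the fit with a replicate block was not run.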
